A study of Mus musculus with 4 samples.

Results

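The 8 genes described here were the MHC class II invariant chain *Cd74*, the classical class II chains *H2-Aa*, *H2-Ab1* and *H2-Eb1*, the peptide editors *H2-DMa* and *H2-DMb1*, the editor inhibitor *H2-Oa* and the class II transactivator *Ciita*. They were chosen by name as class II presentation genes, with earlier results of these data known, and all 8 were found among the 18695 genes of the matrix of unique molecular identifiers (UMIs, each of which marks a captured RNA molecule). Their UMIs were followed over 8969 bone marrow cells, in 18 clusters that gave 19 cell types or clusters.

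Cells came from mice with a floxed *Tet2* gene, the DNA demethylase lost in many myeloid malignancies, and the question of the design was what its loss does to myeloid progenitors and their progeny. *Tet2* KO mice carried Mx1-Cre and *Tet2* fl/fl, controls were Cre-negative *Tet2* fl/fl animals, and all received pI:pC, an inducer of interferon, in repeated injections. Mx1-Cre is itself driven by an interferon-inducible promoter, so recombination follows an interferon response in many tissues. Each genotype gave 1 library of sorted granulocyte-monocyte progenitors (GMP sort; Lin- cKit+ Sca1- CD34+ CD16/32+) and 1 library of Lin- progenitors together with CD11b+ cells (Lin-/CD11b+ sort). With 1 library per genotype and sort no test between genotypes was possible, and what sets the genotypes apart cannot be told apart from what sets 2 mice or preparations apart. All intervals are 95% intervals of counting error only.

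MHC class II molecules present peptides from endocytosed protein to CD4+ T cells. An alpha and a beta chain assemble in the endoplasmic reticulum around the invariant chain, which blocks the groove and steers the complex to endosomes. There, the DM heterodimer exchanges the remaining invariant chain fragment for other peptides, and the DO heterodimer holds DM back. Transcription of the family depends on Ciita, a co-activator without DNA binding of its own that docks on factors bound to a shared promoter module of X and Y boxes. Dendritic cells (DCs) and B cells express class II constitutively, plasma cells shut *Ciita* off, and interferon gamma can induce the family in other cells.

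Of the 8 genes, 6 lie in the MHC on chromosome 17 (GRCm38): *H2-Oa* at chr17:34092340-34095234, *H2-DMa* at chr17:34119541-34139101, *H2-DMb1* at chr17:34153072-34160230, *H2-Ab1* at chr17:34257689-34269419 and *H2-Eb1* at chr17:34305867-34316674 on the plus strand, and *H2-Aa* at chr17:34282744-34287823 on the minus strand. *Ciita* lies at chr16:10480059-10528418 on the plus strand. The annotated span of *H2-DMa* overlaps *Brd2* and 3 other annotated genes. That of *H2-Eb1* overlaps *Gm20513*, that of *H2-Oa* overlaps *BC051537* and that of *Ciita* overlaps *Dexi*. Only *CR974462.3*, which overlaps *H2-DMa*, lies on the same strand as the gene it overlaps, so reads in that shared stretch are uncertain. Promoter windows, from 250 bases before to 50 bases after the start, were read from RefSeq (GRCm38.p6) for *H2-Aa*, *H2-Eb1*, *H2-DMa*, *H2-DMb1* and *H2-Oa*. *H2-Ab1*, *Ciita* and *Cd74* had no entry. The windows of 4 of these genes are shown because their matches to the box letters lay close together, lay farther apart or were to the Y letters only. The capitals mark matches to the X box letters (AGNNAC, then NNATG directly after it, N being any base) and to the Y box letters ATTGG or CCAAT, searched on both strands.
H2-Eb1, chr17:34305617-34305916, plus strand: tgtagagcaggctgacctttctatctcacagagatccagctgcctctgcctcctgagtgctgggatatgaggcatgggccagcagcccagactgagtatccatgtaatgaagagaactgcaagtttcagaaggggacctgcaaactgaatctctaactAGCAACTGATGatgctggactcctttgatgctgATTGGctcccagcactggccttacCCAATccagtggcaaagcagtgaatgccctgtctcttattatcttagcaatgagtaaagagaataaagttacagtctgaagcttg
H2-DMb1, chr17:34152941-34153240, plus strand: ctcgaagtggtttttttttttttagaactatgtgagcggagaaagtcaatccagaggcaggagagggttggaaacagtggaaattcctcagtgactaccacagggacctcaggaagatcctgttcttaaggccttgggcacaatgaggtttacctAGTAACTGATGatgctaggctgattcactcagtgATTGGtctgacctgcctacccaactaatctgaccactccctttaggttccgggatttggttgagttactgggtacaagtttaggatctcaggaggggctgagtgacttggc
H2-Oa, chr17:34092129-34092428, plus strand: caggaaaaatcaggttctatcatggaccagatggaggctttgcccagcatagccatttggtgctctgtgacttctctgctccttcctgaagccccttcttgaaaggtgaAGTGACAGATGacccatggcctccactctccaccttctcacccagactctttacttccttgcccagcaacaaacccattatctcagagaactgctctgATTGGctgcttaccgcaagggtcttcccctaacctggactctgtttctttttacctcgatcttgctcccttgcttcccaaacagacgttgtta
H2-Aa, chr17:34287774-34288073, minus strand: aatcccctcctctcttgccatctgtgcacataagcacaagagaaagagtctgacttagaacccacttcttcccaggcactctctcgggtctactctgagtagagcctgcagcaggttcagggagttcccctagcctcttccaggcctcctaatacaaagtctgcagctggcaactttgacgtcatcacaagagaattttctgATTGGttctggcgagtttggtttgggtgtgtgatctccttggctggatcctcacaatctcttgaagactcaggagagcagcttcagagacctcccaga

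In *H2-Eb1* and *H2-DMb1* the X letters began 92 and 95 bases before the start and were followed after 22 and 23 bases by ATTGG. *H2-Oa* held matches to both farther apart, at 141 and 43 bases before the start. *H2-Aa* held ATTGG at 48 bases and no match to the X letters in this window. A box that departs from the searched letters would be missed. These matches therefore do not show that the module of *H2-Oa* is spread out or that *H2-Aa* lacks an X box. Of 2 *H2-DMa* windows, that at chr17:34122582-34122881 held neither, and that at chr17:34125268-34125567 held ATTGG alone. The former reaches into the annotated span of *Brd2* on the other strand. *H2-DMa* has 8 annotated transcripts, and which start is used in these cells was not examined. The windows therefore do not show that the *H2-DMa* promoter lacks the box letters. X letters occurred in 3.093% of 32851 promoter windows of this length, Y letters in 37.41%, and X letters followed by ATTGG within 10 to 40 bases in 0.06697%, or 22 windows. Those 22 included *H2-Eb1*, *H2-DMb1* and the related genes *H2-Ob* and *H2-Eb2*. The spacing limit was set after these windows had been seen, so the last share is a description.

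The libraries held 1924 (control) and 3068 (*Tet2* KO) cells from the Lin-/CD11b+ sort and 1258 and 2719 from the GMP sort, with 22681380 to 42561110 UMIs each and medians of 10417 to 18713 UMIs per cell. Pairs of libraries shared 4 to 8 cell barcodes, and 413 cells exceeded the stated limit of 5% mitochondrial UMIs. The cell totals that the study lists for the *Tet2* KO GMP and the control Lin-/CD11b+ libraries are exchanged relative to the deposited table, and the deposited table was followed. *Tet2* itself gave no check of the labels, since its 3′ tags need not fall in the floxed exon, and it stood at 14.7 CPM (UMIs of the gene scaled to a common total of 1000000 UMIs) in control and 14.8 CPM in *Tet2* KO cells of hematopoietic stem and early progenitor (HSPC)-like cluster 9. Clusters were formed with class II genes left out of the features and named from marker genes, so that class II levels did not decide which cells were grouped together. In the GMP sort only HSPC-like cluster 8, GMP-like cells, basophil or mast cell-like cells and the unnamed clusters 0 and 2 had at least 50 cells in both libraries, the least for which a ratio between genotypes is given.

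Class II UMIs were not spread evenly over the marrow. In the Lin-/CD11b+ sort the 8 genes together held 1153 CPM of the control and 2412 CPM of the *Tet2* KO library, against 421 and 299.9 CPM in the GMP sort. Cells of the conventional DC-like cluster 6 were 8.47% and 10.8% of Lin-/CD11b+ cells but carried 36.6% and 58.4% of all class II UMIs. Of the UMIs of *Cd74* and the 3 classical chains alone, cluster 6 carried 41.2% and 62.7% and plasma cell-like cells 31.3% and 12.6%. In the GMP sort, where only 0.715% and 0.331% of cells fell in cluster 6, those few cells held 90.2% and 75.4% of the UMIs of *Cd74* and the 3 classical chains.

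**Figure D1:**
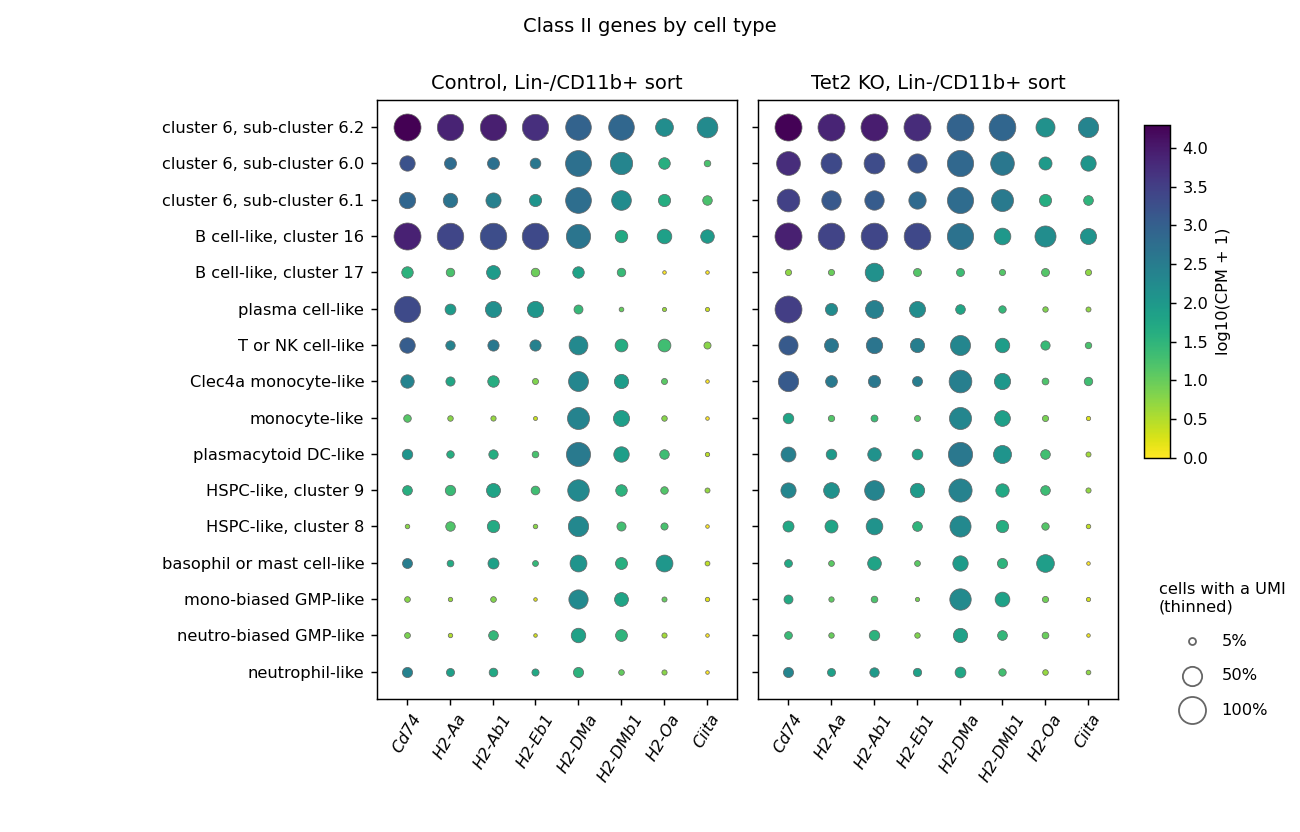
Level (colour, log10 of CPM + 1) and share of cells with a UMI after thinning each cell to 5000 UMIs (dot area) for the 8 genes, by cell type, in the control and *Tet2* KO libraries of the Lin-/CD11b+ sort; cluster 6 is the conventional DC-like cluster. *Cd74* and the classical chains are dark and large in sub-cluster 6.2 and B cell-like cluster 16, while *H2-DMa* is large in most types.

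Ordered by the summed level of the 8 genes, control cells ran from sub-cluster 6.2 (43388 CPM) and B cell-like cluster 16 (15487 CPM) down to neutro-biased GMP-like cells (140.4 CPM). Between these ends came sub-cluster 6.0 (4010 CPM), plasma cell-like cells (2574 CPM), sub-cluster 6.1 (2443 CPM) and T or NK cell-like cells (2247 CPM). The intervals of the last 3 of these overlapped from each to the next. Basophil or mast cell-like (727 CPM), plasmacytoid DC-like (667 CPM) and Clec4a monocyte-like cells (650 CPM) were also neighbours that did not differ beyond counting error. From HSPC-like cluster 9 (388 CPM) down to B cell-like cluster 17 (239 CPM) every type overlapped the next. In *Tet2* KO cells the top 3 places were the same, at 43858, 16660 and 13009 CPM, and HSPC-like cluster 9 stood at 993 CPM, above neutrophil-like and monocyte-like cells (541 and 405 CPM).

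Cluster 6 was led by *Id2*, *Ckb*, *Plbd1*, *Cd7*, *Ifi205* and *Batf3* and was named conventional DC-like from its markers. Of its sub-clusters, 6.2 had *Batf3* and *Xcr1*, genes of cross-presenting DCs, among its leading genes, and 6.1 and 6.0 had *Cd209a*, a lectin gene of DCs. Sub-cluster 6.0 taken alone stays unnamed, because *Cd7* and *Klrd1* of the T and NK cell markers were also among its leading genes. Both were among the leading genes of plasmacytoid DC-like cluster 7 as well, so they do not mark T or NK cells alone here. The 3 sub-clusters were cut after values had been seen and serve as a description. The name of the cluster depended on the clustering. A finer one (resolution 1.2) kept it, for clusters of 150 and 260 and of 16 and 77 Lin-/CD11b+ cells. With class II genes among the features only a cluster of 16 and 79 cells took it, and at resolution 0.4 no cluster did. In each of these last settings a plasmacytoid DC-like cluster had *Cd7* and *Rnase6*, leading genes of sub-clusters 6.0 and 6.1, among its own.

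Sub-cluster 6.2 had the highest class II level of the types described, at similar values in both libraries. Its 19 control cells, beside 72 *Tet2* KO cells, are too few for a ratio. *Cd74*, the invariant chain, stood at 19635 CPM (18882 to 20411) in control and 19189 CPM (18823 to 19561) in *Tet2* KO cells. The beta chain *H2-Ab1* stood at 8840 and 9175 CPM, the alpha chain *H2-Aa* at 7705 and 7529 CPM and the beta chain *H2-Eb1* at 5214 and 5924 CPM. Every *Tet2* KO cell and 94.7% of control cells held a UMI of *H2-Aa* after thinning. The remaining genes were lower, with *H2-DMa* at 897 and 891 CPM, *H2-DMb1* at 751 and 783 CPM, *H2-Oa* at 161 and 136 CPM and *Ciita* at 184 and 229 CPM. For *Ciita* these were the highest levels of any type described in the respective library.

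The other sub-clusters of cluster 6 did differ between the libraries. In sub-cluster 6.0 (71 control and 155 *Tet2* KO cells, with medians of 6970 and 6978 UMIs) *Cd74* was 1619 CPM (1516 to 1728) in control and 5786 CPM (5653 to 5922) in *Tet2* KO cells, a log2 ratio of 1.84 (1.74 to 1.94). *H2-Aa* was 626 and 2237 CPM (log2 ratio 1.84, 1.68 to 2.00), *H2-Ab1* 543 and 2082 CPM (1.94, 1.77 to 2.11) and *H2-Eb1* 400.0 and 1576 CPM (1.98, 1.78 to 2.18). The intervals of these 4 ratios overlapped. *Ciita* had 9 UMIs in control and 142 in *Tet2* KO cells, or 15.9 and 114 CPM, with a log2 ratio of 2.84 (1.88 to 4.00). The editors differed less, with *H2-DMa* at 545 and 719 CPM (0.40, 0.21 to 0.59) and *H2-DMb1* at 221 and 399.9 CPM (0.85, 0.57 to 1.15). *H2-Oa* stood at 38.9 and 94.1 CPM (1.27, 0.61 to 2.00).

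In sub-cluster 6.0, 7 of the 8 genes were 1.5-fold or more higher in *Tet2* KO cells, where 16.3% of all genes with at least 20 UMIs over both libraries were, and 0 were lower, against 9.07% of all genes. The median log2 ratio of the 8 was 1.84, and that of all 6447 genes 0.03. Summed marker lists of several cell types also differed here. The summed level of the conventional DC markers was 462 CPM in control and 729 CPM in *Tet2* KO cells, that of the Clec4a monocyte markers 370 and 916 CPM and that of the T and NK cell markers 338 and 653 CPM. Whether a different mix of cells in sub-cluster 6.0 has a part in the difference was not tested.

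Sub-cluster 6.1 (73 and 105 cells, medians of 8680 and 9956 UMIs) gave a like picture at lower levels. *Cd74* was 795 and 2988 CPM (log2 ratio 1.91, 1.78 to 2.05), *H2-Aa* 451 and 1301 CPM (1.53, 1.35 to 1.71), *H2-Ab1* 279.7 and 1175 CPM (2.07, 1.85 to 2.30) and *H2-Eb1* 118 and 664 CPM (2.50, 2.16 to 2.85). *H2-DMa*, at 570 and 624 CPM (0.13, -0.05 to 0.31), was not separated by counting error, and neither was *H2-Oa* (41.7 and 42.2 CPM) or *Ciita* (16.4 and 30.3 CPM). Of the 8 genes 6 were called higher, against 11.7% of all genes, and 0 lower, against 8.86%, with medians of 1.28 and 0.02. The Clec4a monocyte markers summed to 296 and 592 CPM there, and their part was not tested.

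The difference in sub-clusters 6.0 and 6.1 was one of how many cells carried class II as well as of how much. After thinning, 22.5% (13.5 to 34.0%) of control cells of sub-cluster 6.0 and 65.2% (57.1 to 72.6%) of *Tet2* KO cells held at least 3 UMIs of *Cd74* and the classical chains. In sub-cluster 6.1 these shares were 31.5% (21.1 to 43.4%) and 53.3% (43.3 to 63.1%). In control cells of sub-cluster 6.0 the level was carried by few cells, since 4 cells held 77.6% of these UMIs and the median cell held 0, while the richest 5% of *Tet2* KO cells held 25.9%. *H2-Aa* and *H2-Ab1* were found in the same cell in 14.1% of control and 52.3% of *Tet2* KO cells of sub-cluster 6.0. The share of cells with a UMI of *H2-DMa*, in contrast, was 91.5% and 94.2%.

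**Figure D2:**
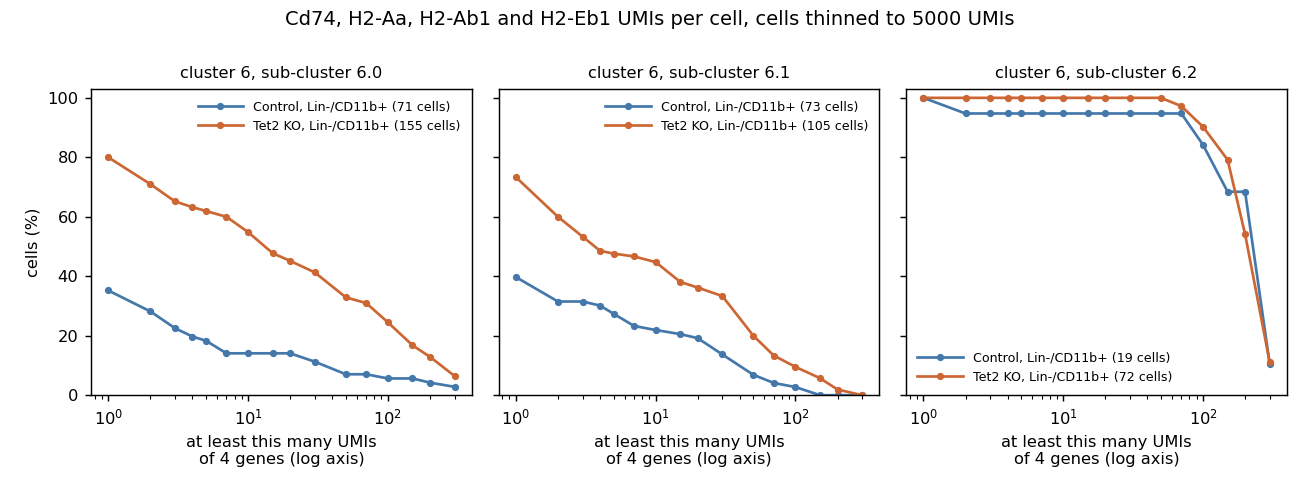
Share of cells (vertical axis, %) with at least the number of UMIs of *Cd74*, *H2-Aa*, *H2-Ab1* and *H2-Eb1* on the log horizontal axis, after thinning to 5000 UMIs, for the 3 sub-clusters of the conventional DC-like cluster and each Lin-/CD11b+ library. The *Tet2* KO curves lie above the control curves in sub-clusters 6.0 and 6.1, with 65.2% against 22.5% and 53.3% against 31.5% at 3 UMIs, and the curves of sub-cluster 6.2 lie close together.

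Lymphoid cells differed among themselves more than between genotypes. B cell-like cluster 16, with *Ms4a1* and *Cd79a* among its leading genes, had few cells (25 control and 35 *Tet2* KO) but the second highest class II level. *Cd74* was 8088 CPM (7703 to 8488) and 8245 CPM (7949 to 8550), *H2-Aa* 2553 and 2728 CPM, *H2-Ab1* 1971 and 2479 CPM and *H2-Eb1* 2240 and 2352 CPM. *Cd74* and *H2-Aa* overlapped between the libraries, and *H2-Ab1* was lower in the control library beyond counting error. *H2-Oa* was 73.4 and 164 CPM, and *Ciita* 92.9 and 121 CPM. B cell-like cluster 17, with 12 and 28 cells and the early B cell genes *Ebf1*, *Vpreb1* and *Igll1* in the lead, had little class II, with 4 UMIs and 1 UMI of *Cd74* and only *H2-Ab1* above a handful of UMIs, at 90.7 CPM (45.3 to 162) and 139 CPM (95.1 to 196).

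Plasma cell-like cells (158 and 169 cells, medians of 14916 and 12655 UMIs) kept *Cd74* and little else of the family. *Cd74* stood at 2188 CPM (2131 to 2247) and 3247 CPM (3173 to 3321), was found in 100% and 99.4% of cells, and made up 85.02% and 82.1% of their class II UMIs. In B cell-like cluster 16 that share was 52.2% and 49.5%, and in sub-cluster 6.2 it was 45.3% and 43.8%. *Ciita* was at 3 and 10 UMIs, or 1.203 and 4.38 CPM, in plasma cell-like cells. The chains *H2-Aa* (88.7 and 171 CPM), *H2-Ab1* (149 and 279.9 CPM) and *H2-Eb1* (109 and 160.3 CPM) were far below their level in B cell-like cluster 16. The editors *H2-DMa* (25.3 and 57.8 CPM) and *H2-DMb1* (9.23 and 26.7 CPM) were low as well, near their level in neutrophil-like cells (33.4 and 9.76 CPM in the control library).

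Between genotypes the summed class II level of plasma cell-like cells had a log2 ratio of 0.62 (0.57 to 0.67), where the median over all genes was 0.13. Of the 7 genes with enough UMIs 5 were called higher, against 15.9% of all genes, and 0 lower, against 7.97%. The ratio of *Cd74* was 0.57 (0.52 to 0.62) and did not reach the limit, and that of *H2-DMb1* was 1.53 (0.82 to 2.29). In this type another scaling factor (TMM) shifted all ratios down by 0.14, to 0.48 for the sum.

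**Figure D3:**
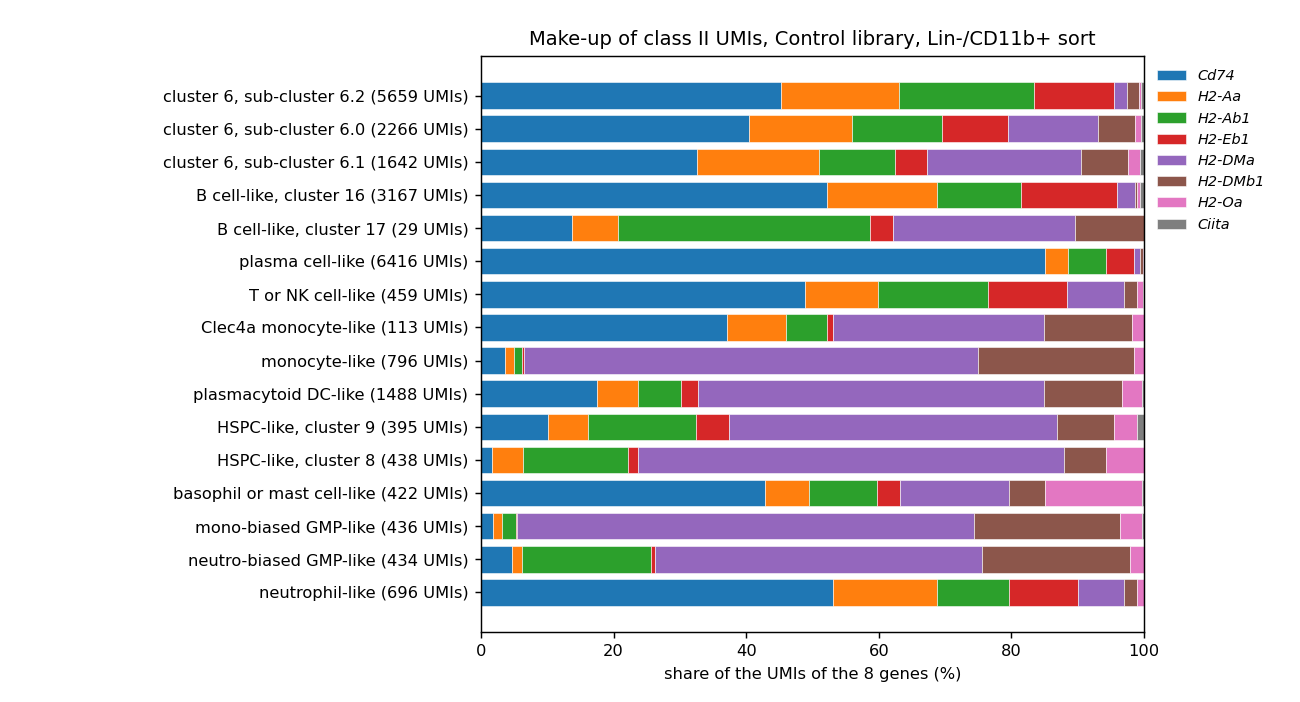
Share of the UMIs of the 8 genes (horizontal axis, %) that each gene takes in each cell type of the control Lin-/CD11b+ library, with the number of UMIs behind each bar. *Cd74* takes 85.02% in plasma cell-like cells, *H2-DMa* takes the largest share in monocyte-like, plasmacytoid DC-like, HSPC-like and GMP-like cells, and *H2-Oa* is widest in basophil or mast cell-like cells.

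T or NK cell-like cells (19 and 98 cells) had a summed class II level of 2247 and 2731 CPM, with *Cd74* at 1096 and 1268 CPM and *H2-Aa* at 249.6 and 408 CPM. In the control library 1 cell held 68.5% of the UMIs of *Cd74* and the classical chains. Markers of other cells were high in this group as well, at 31481 and 14561 CPM for the neutrophil list, 2785 and 2992 CPM for the plasma cell list and 3632 and 5192 CPM for the monocyte list, and their part in the class II level was not tested.

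The Clec4a monocyte-like cells, a sub-cluster of 30 control and 171 *Tet2* KO cells with *Wfdc17*, *Clec4a3* and *Clec4a1* among its leading genes, are given side by side without a ratio. *Cd74* stood at 242 CPM (174 to 327) in control and 1261 CPM (1199 to 1326) in *Tet2* KO cells. *H2-Aa* was at 57.5 CPM (27.6 to 106) and 358 CPM (325 to 393), *H2-Ab1* at 40.3 and 384 CPM, and *H2-Eb1* at 1 UMI, or 5.75 CPM (0.146 to 32.1), and 308 CPM (278 to 341). None of these 4 pairs of intervals overlapped. *H2-DMa* (207 and 289 CPM), *H2-DMb1* (86.3 and 102.7 CPM) and *H2-Oa* (11.5 and 14.8 CPM) lay closer together, and *Ciita* had 0 UMIs in the control cells, where 3 UMIs would have been 17.3 CPM, and 19.7 CPM in *Tet2* KO cells. *Cd74* was found in 23.3% and 55.6% of thinned cells. In both libraries few cells carried most of the level, 2 of 30 control cells with 73.3% and 9 of 171 *Tet2* KO cells with 74.8% of the UMIs of *Cd74* and the classical chains.

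Monocyte-like cells (241 and 366 cells, medians of 9521 and 10375 UMIs) had low levels of *Cd74* and the chains beside higher levels of the editors. *Cd74* was 12.4 and 59.5 CPM (log2 ratio 2.26, 1.70 to 2.87), *H2-Ab1* 3.86 and 22.4 CPM (2.54, 1.55 to 3.71) and *H2-Eb1* 1.29 and 12.4 CPM, the last from 3 and 50 UMIs. In the control library these levels were near or under those of neutro-biased GMP-like cells, per cell. *H2-DMa*, at 234 and 213 CPM (-0.13, -0.29 to 0.03), and *H2-DMb1*, at 80.1 and 76.1 CPM, made up most of the class II UMIs of this type and differed by less than counting error. So the chains differed several-fold while the sum differed by a log2 ratio of only 0.25 (0.12 to 0.37). Of 7 genes 4 were called higher, against 8.31% of all genes, and 0 lower, against 6.62%, with medians of 1.54 and 0.02. In *Tet2* KO cells 4 cells held 42.9% of the UMIs of *Cd74* and the chains. The summed ratio was 1.54 under a coarser clustering, whose monocyte-like cluster held 274 and 550 cells and had *Wfdc17* and *Ccl6*, leading genes of the Clec4a monocyte-like cluster, among its own. It was 1.04 with cells gated one by one, and turned to -0.30 with the neutrophil-like level subtracted.

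Plasmacytoid DC-like cells (229 and 276 cells, medians of 8613 and 9568 UMIs) had a class II make-up unlike that of conventional DC-like cells, since *H2-DMa* took 52.2% of their class II UMIs in the control library. *H2-DMa* stood at 348 and 376 CPM, a log2 ratio of 0.11 (-0.02 to 0.25), and *H2-DMb1* at 78.5 and 118 CPM (0.58, 0.32 to 0.86). *Cd74* was 117 CPM (102.8 to 132) in control and 286 CPM (267 to 306) in *Tet2* KO cells (1.29, 1.09 to 1.501). *H2-Aa* was 41.7 and 98.5 CPM (1.24), *H2-Ab1* 43.0 and 133 CPM (1.63) and *H2-Eb1* 17.04 and 70.6 CPM (2.05, 1.55 to 2.59). *H2-Oa* and *Ciita* were not separated, at 20.6 and 19.1 CPM and at 4 and 9 UMIs. Of 7 genes 4 were called higher, against 6.58% of all genes, and 0 lower, against 7.48%, with medians of 1.24 and -0.01. Here too few cells weighed heavily, with 55.2% of the UMIs of *Cd74* and the chains in 3 control cells and 25.8% in 3 *Tet2* KO cells. The summed ratio, 0.73 (0.64 to 0.82), was 1.51 to 1.59 when cells were gated one by one, clustered more coarsely or clustered with class II genes among the features. These were not the same cells: the coarser cluster held 385 and 598 cells, and with class II genes as features the name went to clusters of 267 and 414 cells and of 102 and 96 cells.

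HSPC-like cells were the early progenitor group, in clusters 8 and 9. Cluster 9 was found almost only in the Lin-/CD11b+ sort (113 control and 303 *Tet2* KO cells, medians of 8527 and 7360 UMIs), while cluster 8 occurred in both sorts. Class II genes were low there in control cells, and each chain was higher in the *Tet2* KO library of the Lin-/CD11b+ sort. In cluster 9 *Cd74* had 40 UMIs, or 39.3 CPM (28.1 to 53.5), in control and 497 UMIs, or 211 CPM (192 to 229.9), in *Tet2* KO cells, a log2 ratio of 2.42 (1.96 to 2.93). *H2-Aa* had 24 and 331 UMIs, or 23.6 and 140.2 CPM (2.57, 1.97 to 3.24). *H2-Ab1* had 64 and 533 UMIs, or 62.8 and 226 CPM (1.85, 1.47 to 2.24). *H2-Eb1* had 20 and 219 UMIs, or 19.6 and 92.8 CPM (2.24, 1.58 to 2.98). The 4 genes were therefore apart by similar factors, with overlapping intervals. The editors lay close to each other, *H2-DMa* at 191 and 247 CPM (0.37, 0.13 to 0.61) and *H2-DMb1* at 33.4 and 51.7 CPM (0.63, 0.07 to 1.22). *H2-Oa* (13.7 and 21.2 CPM) was not separated by counting error, and *Ciita* gave 4 and 10 UMIs.

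Of 7 genes with enough UMIs in cluster 9, 6 were 1.5-fold or more higher in *Tet2* KO cells, against 11.6% of all genes, and 0 were lower, against 7.09%. Their median log2 ratio was 1.85, and that of 8347 genes 0.01. In cluster 8 of the same sort (92 and 184 cells, medians of 15814 and 13399 UMIs), 5 of 7 were higher, against 10.4%, and 0 lower, against 5.85%, with medians of 1.37 and 0.01. *Cd74* was 4.77 and 54.1 CPM there (3.50, 2.42 to 4.84), from 7 and 135 UMIs, *H2-Aa* 14.3 and 60.9 CPM (2.09), *H2-Ab1* 47.0 and 121 CPM (1.37) and *H2-Eb1* 4.77 and 31.2 CPM (2.71). The editors differed from each other, with *H2-DMa* at 192 and 189.8 CPM (-0.01, -0.23 to 0.20) and *H2-DMb1* at 19.1 and 42.9 CPM (1.17, 0.55 to 1.82).

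The GMP sort held few UMIs of *Cd74* and *H2-Aa* in this cluster. In cells of cluster 8 from the GMP sort (88 control and 131 *Tet2* KO cells, medians of 23158 and 18562 UMIs), *Cd74* had 1 and 10 UMIs (log2 ratio 2.99, 0.17 to 8.43) and *H2-Aa* 2 and 16 UMIs (2.66, 0.58 to 5.83). Both were under the limit of 20 UMIs and so were not counted among the genes below, and the sum rests mainly on *H2-Ab1* and the editors. *H2-Eb1* had 0 UMIs in control cells, where 3 UMIs would have been 1.54 CPM, and 4 in *Tet2* KO cells. *H2-Ab1* was detected at 35.5 and 39.97 CPM (0.17, -0.29 to 0.64), and *H2-DMa* was lower in *Tet2* KO cells, at 145 and 114 CPM (-0.35, -0.59 to -0.10). Of 4 genes with enough UMIs 1 was called higher, *H2-Oa* with 7 and 26 UMIs (1.56, 0.32 to 3.01), against 5.57% of all genes, and 0 lower, against 8.82%. The medians were 0.12 over the 4 genes and -0.04 over all genes. The summed level in cluster 8 thus had a log2 ratio of 0.79 (0.63 to 0.95) in the Lin-/CD11b+ sort and -0.05 (-0.23 to 0.14) in the GMP sort. The difference between the sorts was not tested, and the gates differ, since the GMP gate excludes Sca1+ cells.

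**Figure D4:**
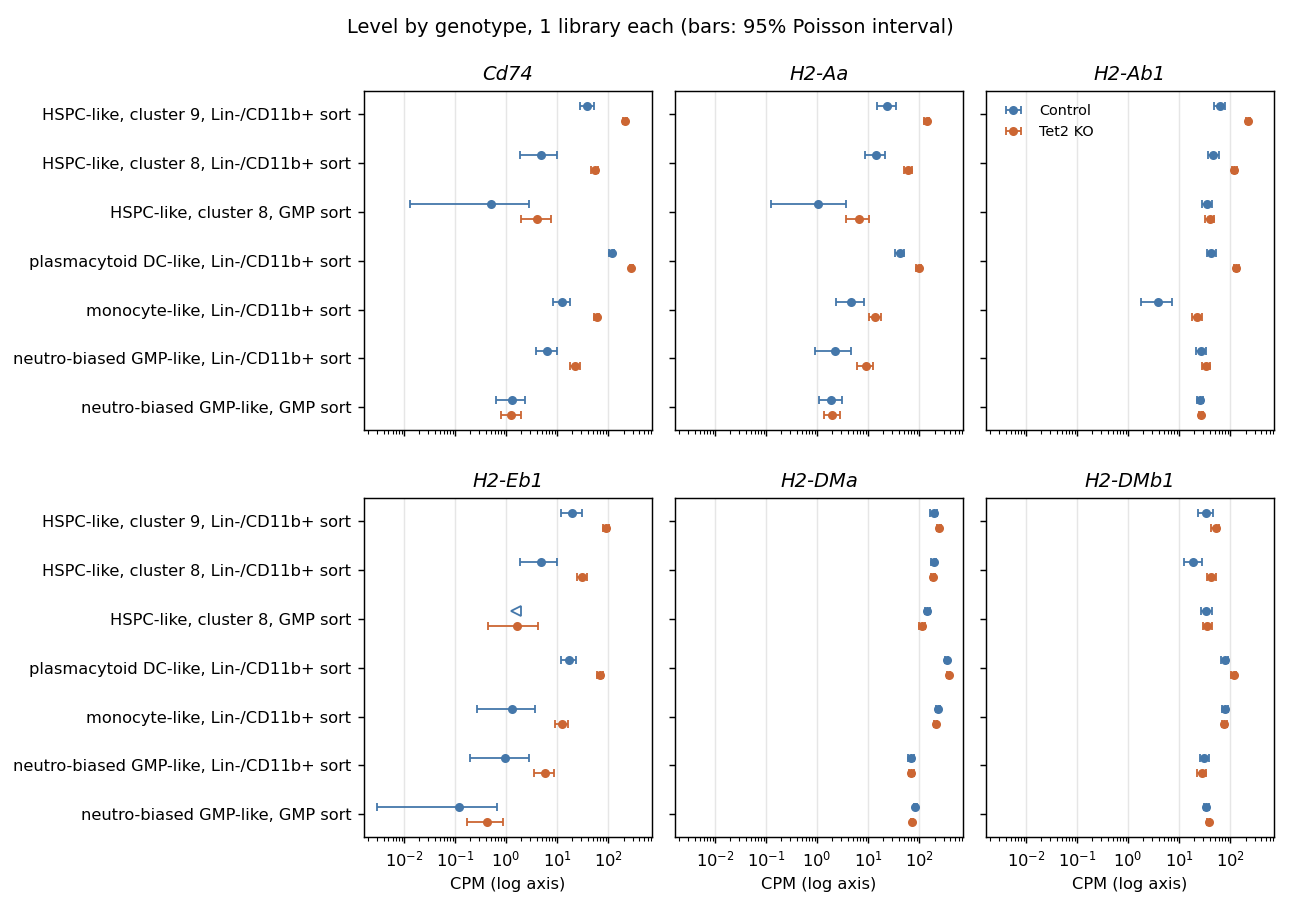
CPM (log axis) of 6 of the genes in the control and *Tet2* KO libraries for 7 combinations of cell type and sort; points are the libraries, bars are 95% Poisson intervals, and the open triangle marks the level of 3 UMIs where no UMI was found. *Cd74* in HSPC-like cluster 9 lies at 39.3 and 211 CPM, while *H2-DMa* lies at 191 and 247 CPM and the neutro-biased GMP-like cells of the GMP sort lie together.

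Neutro-biased GMP-like cells, precursors of neutrophils that are not known for class II presentation, were taken as a reference for UMIs that may come from free RNA in the droplets. In the Lin-/CD11b+ sort (203 and 287 cells, medians of 15207 and 12537 UMIs) they held *Cd74* at 6.47 and 22.9 CPM (1.82, 1.11 to 2.61) and *H2-Aa* at 2.27 and 8.998 CPM. A genotype difference of like direction was thus present there at a low level. *H2-Ab1* (27.2 and 33.3 CPM) and *H2-DMa* (69.2 and 70.4 CPM) stood above *Cd74* in these cells. For these 2 genes the reference may hold expression of its own, so subtracting it may remove more than free RNA. After thinning *H2-Aa* was found in 13.3% and 32.7% of cells of HSPC-like cluster 9 and in 0.985% and 2.44% of these reference cells. The UMIs of *Cd74* per cell in cluster 9 were 3.59 times the reference in the control and 5.60 times in the *Tet2* KO library. In cluster 8 *Cd74* was 0.772 times the reference in control and 2.51 times in *Tet2* KO cells. In monocyte-like cells *Cd74* was 1.22 and 2.23 times and *H2-Ab1* 0.0902 and 0.578 times the reference. The control level of *Cd74* was therefore below the reference in cluster 8 and close to it in monocyte-like cells, but above it in cluster 9. *H2-Ab1* of monocyte-like cells was under the reference in both libraries. With the reference level per cell subtracted, the log2 ratio of the summed genes in all HSPC-like cells of the sort was 1.58, against 1.16 (1.05 to 1.27) without it. Neutrophil-like cells (150 and 152 cells, medians of 8870 and 8950 UMIs) held more, with *Cd74* at 258 and 220 CPM in 12.7% and 12.5% of thinned cells, and 8 cells of each library held 90.7% and 90.8% of the UMIs of *Cd74* and the chains. Neutrophil-like cells had been planned as the type that should lack class II. The neutro-biased GMP-like reference was added after values had been seen. Control *Cd74* in HSPC-like cluster 9, at 39.3 CPM, was below the neutrophil-like level. With the neutrophil-like level subtracted the HSPC-like ratio was 0.49.

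Within HSPC-like cluster 9 the higher level was spread over many *Tet2* KO cells. At least 3 UMIs of *Cd74* and the chains were held by 5.31% (1.97 to 11.2%) of thinned control cells and 32.0% (26.8 to 37.6%) of thinned *Tet2* KO cells, against 0.985% and 1.39% in the reference cells. The median cell held 0.973 and 2.75 of these UMIs per 10000, and the cell at the 90th percentile 3.57 and 18.0. The richest 4 of the 303 *Tet2* KO cells held 23.9%, and the highest value of a cell was 10.1 per 10000 in control and 243 per 10000 in *Tet2* KO cells. *H2-Aa* and *Cd74* were found in the same thinned cell in 3.54% of control and 17.8% of *Tet2* KO cells.

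**Figure D5:**
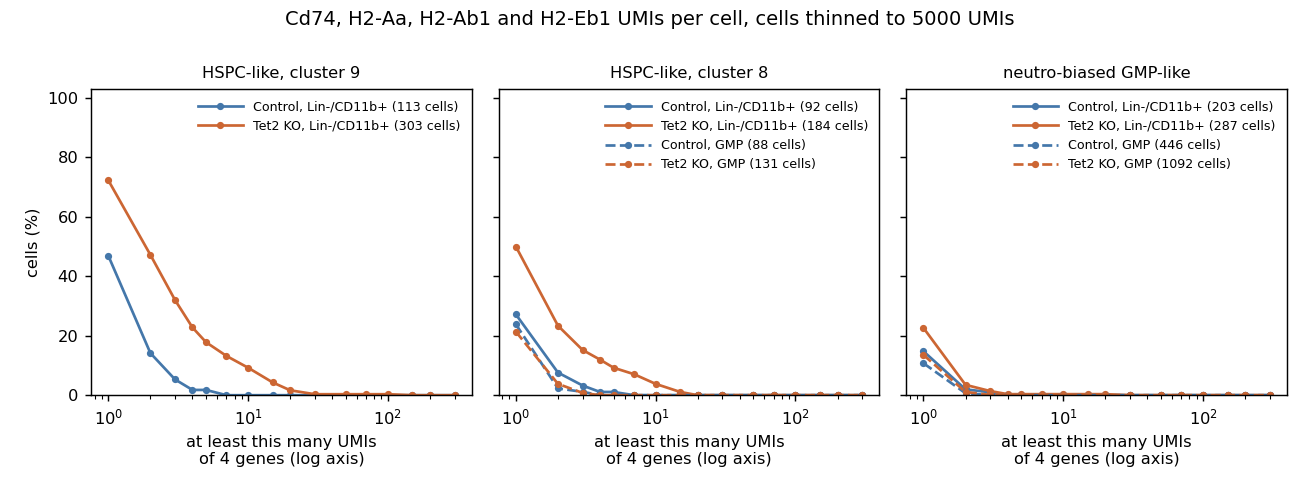
Share of cells (vertical axis, %) with at least the number of UMIs of *Cd74*, *H2-Aa*, *H2-Ab1* and *H2-Eb1* on the log horizontal axis, after thinning to 5000 UMIs, for HSPC-like clusters 9 and 8 and neutro-biased GMP-like cells in each library with at least 50 cells. At 3 UMIs the *Tet2* KO library of the Lin-/CD11b+ sort stands at 32.0% in cluster 9 and 15.2% in cluster 8, the control library at 5.31% and 3.26%, and the GMP sort at 1.14% or less.

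Single defining genes of DCs and B cells were scarce in cluster 9. Among its control and *Tet2* KO cells *Xcr1*, *Clec9a* and *Cd209a* had 0 and 1 UMI each, *Zbtb46* and *Ms4a1* had 0 in both, *Itgax* had 1 and 0 and *Cd79a* 2 and 1. The conventional DC list summed to 99.1 and 97.4 CPM with 8 and 3 of its 13 genes at 0, and the B cell list to 40.2 and 37.7 CPM. The plasmacytoid DC list summed to 338 and 264 CPM, the Clec4a monocyte list to 194 and 159 CPM, the plasma cell list to 131 and 101 CPM and the HSPC list to 1019 and 1050 CPM. The lists share genes, such as *Flt3* on both the HSPC and the conventional DC list, so a sum need not follow admixed cells. Whether admixed DCs or B cells have a part in the class II difference was not tested. When cells with a UMI of any defining gene of B cells, DCs or T cells were left out of all HSPC-like cells (205 to 199 and 487 to 470 cells), an alternative chosen after seeing the data, the log2 ratio of the summed genes was 1.07. *Dntt*, a gene of early lymphoid progenitors, went the other way, at 98.2 and 37.3 CPM in cluster 9.

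In the Lin-/CD11b+ sort, HSPC-like cells with a UMI of the stem cell genes *Hlf*, *Procr* or *Mecom* (99 and 228 cells) had a summed class II level of 376 and 1054 CPM, a log2 ratio of 1.49 (1.33 to 1.64). Those without (106 and 259 cells) had 304 and 498 CPM (0.71, 0.55 to 0.87). *Cd74* was 30.8 and 235 CPM in the first and 9.90 and 44.4 CPM in the second. The intervals of the 2 ratios did not overlap, and the split was made after values had been seen. It was made over clusters 8 and 9 together. *Hlf* was among the leading genes of cluster 9 only, and *Procr* passed as a marker there only. Whether the split repeats the difference between the 2 clusters was not tested.

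*H2-Ab1* was also found in progenitors that held no UMI of the other chains. In cells without any UMI of *Cd74*, *H2-Aa* or *H2-Eb1* it stood at 57.8 CPM (41.1 to 79.1) in control and 99.6 CPM (80.9 to 121) in *Tet2* KO cells of HSPC-like cluster 9, and at 40.3 and 60.2 CPM in cluster 8 of that sort. In cluster 8 of the GMP sort these levels were 35.4 and 38.0 CPM, and in neutro-biased GMP-like cells 28.1 and 31.9 CPM. In the Lin-/CD11b+ sort mono-biased GMP-like cells were lower, at 5.81 and 7.35 CPM. So *H2-Ab1* UMIs without the other chains were several-fold more frequent in HSPC-like and neutro-biased than in mono-biased progenitors in each library of that sort. A cell without a UMI of a gene may still express it at a low level, so these cells need not lack the other chains.

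*H2-DMa*, the alpha chain of the peptide editor, was the most widespread of the 8 genes, from 25.3 CPM in plasma cell-like to 897 CPM in sub-cluster 6.2 of the control library, with 191 CPM in HSPC-like cluster 9 and 234 CPM in monocyte-like cells. *H2-Oa*, the alpha chain of its inhibitor, had a second site of high level in basophil or mast cell-like cells. There it stood at 107 and 79.9 CPM in the Lin-/CD11b+ sort and at 90.6 and 64.3 CPM in the GMP sort, and was found in 29.3 to 41.7% of thinned cells of the 4 libraries. *Cd74* in these cells was 312 and 51.5 CPM in the Lin-/CD11b+ sort and 0.768 and 5.51 CPM in the GMP sort. In the first of these libraries 1 cell held 65.2% of the UMIs of *Cd74* and the chains. In the Lin-/CD11b+ sort, where only 66 control cells were found, the summed level of the 8 genes, 726.5 and 339.8 CPM, was lower in *Tet2* KO cells, at a log2 ratio of -1.10 (-1.31 to -0.88), with *Cd74* at -2.60 (-3.08 to -2.13). *H2-Aa* was 48.2 and 11.6 CPM (-2.06, -3.21 to -1.01). Of 7 genes 0 were called higher, against 14.9% of all genes, and 3 lower, against 10.5%, with medians of -0.43 and 0.08. Without the 3 cells richest in class II UMIs of each library the summed ratio was -0.23, and without the 5% highest doublet scores it was -0.22.

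Over 44 sums of a library and a cell type with at least 50 cells, *Cd74* and the chains moved together. Pearson's r of log2(CPM + 1) was 0.96 for *Cd74* with *H2-Aa*, 0.97 with *H2-Eb1* and 0.34 with *H2-DMa*, and 0.98 for *H2-Aa* with *H2-Eb1*. With the summed level of the 8, r was 0.94 for *Ciita*, 0.54 for *H2-DMa*, 0.64 for *H2-DMb1* and 0.55 for *H2-Oa*. Of 11128 other genes, those most like the sum were *Slamf7* (0.92), *Ckb* (0.91), *Batf3* (0.90), *Phf11a*, *Csprs*, *Ifi205*, *Tbc1d9*, *Slc46a3*, *Grap2* and *Tapbp*, the last an assembly factor of class I, at 0.87. *H2-DMa* was most like *Prcp* (0.93), *Cd48* and *Mndal* (0.92 each) and *H2-Oa* most like *Tbc1d4* (0.86). The sums share libraries, depth and free RNA, so these are descriptions.

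Other genes of the pathway, taken from 4 lists, were counted by the same 1.5-fold limit, and some genes of the interferon gamma pathway are given singly. In HSPC-like cluster 9, 3 of 10 class II transcription factors with enough UMIs were higher, against 11.6% of all genes, and 1 lower, against 7.09%, in *Tet2* KO cells, *Rfx5* with 5 and 36 UMIs (log2 ratio 1.64, 0.28 to 3.34), *Rfxap* (1.11, -0.18 to 2.66) and *Nfya* (1.03, 0.31 to 1.83) against *Irf8* (68.7 and 40.2 CPM; -0.77, -1.23 to -0.31). Rfx5 and Rfxap belong to the X box complex and Nfya to the Y box complex. Of 5 genes of loading and processing 1 was higher, the invariant chain protease *Sppl2a* (0.81, 0.07 to 1.61), and 0 lower. Of the interferon gamma genes, *Irf1* (0.64, -0.07 to 1.41) and *Socs1* (0.79, -0.67 to 2.56) were past the limit with intervals that include 0, and the receptor chain *Ifngr2* was lower (-1.13, -2.14 to -0.12). *Ifng* itself had 0 UMIs in this cluster. The median log2 ratio was 0.02 over the tested transcription factors and -0.38 over the loading genes, beside 0.01 over all genes. The 1 tested gene of turnover was within the limit, and 1 of 2 co-stimulation genes was higher, *Pdcd1lg2* with 5 and 18 UMIs.

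In sub-cluster 6.0, 4 of 10 transcription factors were higher, against 16.3% of all genes, and 1 lower, against 9.07%. Higher was *Irf4*, a factor of DC differentiation, with 2 and 31 UMIs, and lower was *Irf8* at 1172 and 738 CPM (-0.67, -0.81 to -0.52). Of 3 co-stimulation genes 2 were higher there and 1 lower, with 2 and 47 UMIs of *Cd40* and 2 and 30 of *Icosl*. *Irf1* was higher there, with 7 and 57 UMIs (1.89, 0.75 to 3.27). In plasmacytoid DC-like cells 0 of 11 transcription factors were past the limit, against 6.58% of all genes higher and 7.48% lower, and *Ctsl*, an endosomal protease, was lower at 69.5 and 31.0 CPM (-1.17, -1.56 to -0.78).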

How the data were processed

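Single-cell 3′ RNA-seq libraries were made from 4 sorted bone marrow samples, 1 per genotype and sort. The authors deposited raw UMI counts per gene and cell with a table that assigns cells to libraries, and their processing notes name Cell Ranger 3.1.0, Seurat and the mouse build mm10. The sources used here name different versions of the library kit. Every cell in the deposited counts had at least 5003 UMIs, and 0 columns of per-sample values were left unused.

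Cells were normalised to 10000 UMIs and clustered with scanpy 1.11.5 and leidenalg 0.10.2 (2000 features without class II genes, 30 components, 30 neighbours, resolution 0.8, seed 1). Clusters were named when at least 3 markers were detected and the leading genes did not go against the name. Scrublet called 31 of 8969 cells (0.346%), too few to be used as a doublet filter, and no cell was removed. UMIs were summed per library and type and given as CPM, UMIs scaled to a total of 1000000. A 3′ UMI marks a molecule whatever its length, so levels were not divided by length, but capture and mapping can differ between genes.

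Intervals are exact (Poisson for levels, Clopper-Pearson for shares, conditional binomial for ratios; 95%). With 1 library per group no test was made. Ratios are given where both libraries held at least 50 cells of a type, and calls of 1.5-fold or more for genes with at least 20 UMIs over both. Shares were also computed after thinning each cell to 5000 UMIs. Named genes were the 8 members, fixed pathway lists, and the 10 genes with the highest correlation with the summed members among genes with at least 100 UMIs. TMM factors came from edgeR 4.0.16 in R 4.3.3, and the ratio and its interval were tested on simulated data. Other tools were Python 3.11.15, numpy 2.4.6, pandas 2.3.3, scipy 1.17.1 and matplotlib 3.10.9. Gene positions came from GENCODE for GRCm38.

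An item of the interferon gamma list is not reported here, so no counts are given for that list. The members and lists were chosen with earlier results of these data known. The sub-clusters, the separation of HSPC-like clusters 8 and 9, the sum of *Cd74* and the 3 classical chains, the split by *Hlf*, *Procr* and *Mecom*, the neutro-biased GMP-like reference and the spacing of promoter motifs were chosen after values had been seen.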

Additional observations from a re-analysis of the deposited data

Results flagged for a closer look

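In 3 types the summed class II ratio of *Tet2* KO over control had opposite signs in the 2 sorts, and the difference between sorts was not tested. The log2 ratios in the Lin-/CD11b+ and GMP sorts were 0.79 and -0.05 in HSPC-like cluster 8, 0.34 and -0.04 in neutro-biased GMP-like cells and -0.02 and 0.12 in cluster 0. Each pair holds a ratio close to no difference. That of HSPC-like cluster 8 in the GMP sort was not separated by counting error.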

How the results depend on the processing

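No paired analysis was possible because each group had 1 sample. Values are log2 ratios of *Tet2* KO over control, and the cause of each shift was not tested. In the Lin-/CD11b+ sort, for HSPC-like cells the summed ratio of 1.16 was 1.04 without the cells of highest Scrublet score, 0.96 without *Cd74*, 0.49 and 1.58 with the neutrophil-like and neutro-biased GMP-like levels subtracted, and -0.062 in the GMP sort, and the members' median of 1.69 was 0.63, 2.53 and 0.15 in the last 3 and 1.30 with no filter. The GMP sort value of -0.062 was 0.20 with cells gated one by one and 1.16 in the other sort. For conventional DC-like cells the sum of 1.25 and the median of 1.28 were 1.13 and 1.15 as the mean over cells, 1.10 and 1.06 gated one by one, 1.31 and 1.35 without the highest Scrublet scores and 1.48 and 1.52 without the 3 richest cells, and the sum was 1.31 with the neutrophil-like level subtracted and 1.21 without *Cd74*. For plasmacytoid DC-like cells the sum of 0.73 was 1.59 with class II genes among the features, 1.53 at resolution 0.4, 1.51 gated one by one, 0.47 and 0.98 with the neutrophil-like and neutro-biased GMP-like levels subtracted and 0.57 without *Cd74*. For monocyte-like cells the sum of 0.25 was 1.54, 1.04, -0.30, 0.45 and 0.072 under the last 5 of these settings in turn and 0.12 without the 3 richest cells, and the median of 1.54 was -0.29 with the neutrophil-like level subtracted and -0.074 with at least 100 UMIs. For plasma cell-like cells the sum of 0.62 was 0.48 with TMM factors, as the mean over cells and at resolution 0.4, 0.51 without the highest Scrublet scores and 0.87 without *Cd74*.

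In neutrophil-like cells the sum of 0.16 was -0.070 with TMM factors, which shifted all genes by 0.23, -0.61 without the 3 richest cells and -0.0057 with the neutro-biased GMP-like level subtracted, and the median of 0.60 was -0.13 without cells holding B cell or DC markers and -0.70 without the 3 richest cells. In mono-biased GMP-like cells the median of 0.82 was -0.027 in the GMP sort and, with the neutrophil-like level subtracted, -0.20, and the sum of 0.33 then was -0.15. In neutro-biased GMP-like cells the sum of 0.34 was -0.042 in the GMP sort, and the sum and the median of 1.58 were -0.10 and -0.079 gated one by one and -0.81 and -0.98 with the neutrophil-like level subtracted.

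Shares of cells with a class II UMI, control and *Tet2* KO, fell with thinning and with a minimum of 3 UMIs, from 93.2% and 98.2% to 77.6% and 91.2% and to 69.8% and 78.2% in HSPC-like cells, from 98.3% and 98.6% to 88.6% and 92.03% and to 76.9% and 88.8% in plasmacytoid DC-like cells and from 92.5% and 94.5% to 80.1% and 79.8% and to 60.2% and 62.6% in monocyte-like cells, while in control conventional DC-like cells the share was 93.9% at 3 UMIs. Removing HSPC-like and GMP-like cells with any B cell or DC marker UMI left too few cells (5 and 26 HSPC-like cells), the GMP sort held too few DC-like, monocyte-like, plasma cell-like and neutrophil-like cells, and some alternatives left no type of the same name, so these were not run.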

Other observations

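Of the class II genes outside the 8, *H2-DMb2*, a second DM beta chain, and *H2-Ob*, the beta chain of DO, were found in the matrix with *H2-Eb2*. In B cell-like cluster 16 *H2-DMb2* stood at 303 and 316 CPM in control and *Tet2* KO cells, above *H2-DMb1* at 48.9 and 102 CPM, while in sub-cluster 6.2 it stood at 84.3 and 80.7 CPM, below *H2-DMb1* at 751 and 783 CPM. *H2-Ob* had 2 and 35 UMIs in sub-cluster 6.0, where *H2-DMb2* had 12 and 111. *H2-DMb1* and *H2-DMb2* are closely related copies, so reads could be divided between them.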
